A study of Mus musculus with 6 samples.

Results

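The kinesin and centromere protein genes were followed in thymic medullary epithelial cells with and without Aire, a protein of these cells that lets them express genes of other tissues. Members were the genes whose symbol is Kif followed by a digit, or Cenp followed by a letter, on a probe set annotated with exactly 1 symbol. The rule found 59 genes of the 19938 with such a probe set, 38 Kif genes and 21 Cenp genes. By their known roles they were divided into 11 mitotic kinesins, 15 transport kinesins, 12 ciliary and other kinesins and 21 Cenp genes. The brightest probe set stood for each gene. The rule used no difference between the genotypes, but the members, roles and lists were chosen with earlier results of these data known.

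Kinesins are motors that use ATP to move along microtubules or to take them apart. Transport kinesins carry vesicles, organelles and protein complexes, also in cells that do not divide. Mitotic kinesins are made mostly as a cell approaches division, when they build the spindle, move chromosomes and help to split the daughter cells. Most Cenp proteins mark the centromere or form the kinetochore, the plate on each chromosome to which spindle microtubules attach.

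Thymi of mice aged 4 to 6 weeks on a (B6xNOD)F1 background gave the cells, which were isolated by flow cytometry as CD45- cells with intermediate Ly51 and high MHC class II. The groups were 3 arrays labelled Aire WT and 3 labelled Aire KO (strain Aire-/-), numbered as replicates. Whether the replicates came from separate mice is not stated, so p-values measure the spread between these samples, which may be technical. Twice-amplified RNA was hybridised, and each value is the log2 of a probe set's intensity after RMA normalization. Levels of different probe sets are not comparable, so each comparison below is between arrays for the same gene or the same set of genes.

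Median intensities of the 6 arrays lay between 92.9 and 98.2. The probe set of Aire read 11.97 ± 0.04 in WT and 12.41 ± 0.02 in KO (SD, n = 3), so it was higher in KO and gives no check of the genotype labels, and the deleted part of the gene is not named. All 14 listed markers of medullary and thymic epithelium were above the intensity filter described below on every array. Of these, 3 fell (Epcam, Krt5 and Krt14), 1 rose (Aire) and 10 were not called. That is 21.4% lower and 7.14% higher, against 14.1% and 12.04% of all tested genes. Their median difference was 0.03, with 7 below 0 and 7 above. Of 15 thymocyte markers found, 9 were above the filter on every array, and Cd3d, Rag2, Dntt and Themis were above it on none. Among the 10 thymocyte markers tested, Ptprc (CD45) and Cd3g fell and 8 were not called. Of 5 tested cortical epithelial markers, Enpep and Ctsl fell, Prss16 and Cd83 rose and 1 was not called. That is 40% in each direction against 14.1% and 12.04% of all tested genes. Enpep (Ly51) had a limma adjusted p of 6.4e-06. Its replicates 1 to 3 read 7.26, 7.26 and 7.27 in WT and 6.34, 6.31 and 6.15 in KO. Of 8 tested stromal and endothelial markers, Col1a1 fell, Dcn rose and 6 were not called, which is 12.5% in each direction. Of 4 tested B cell and dendritic markers, Cd79b and Zbtb46 rose, 0 fell and 2 were not called. That is 50% higher against 12.04% of all tested genes. Whether the sorted populations matched was not tested.

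A gene was tested where 3 or more arrays had a log2 value over 5.97, the 40th percentile of all values. Of the 59 members, 46 were tested and 13 were too dim, and no tested member passed through the arrays of 1 genotype alone. With limma at a Benjamini-Hochberg adjusted p of 0.05 over all 13925 tested genes, 13 members fell, 4 rose and 29 were not called. The same rule called 26.1% of all tested genes, 14.1% lower and 12.04% higher in KO. Among the 46 tested members the groups did not overlap for 15 lower and 7 higher in KO, beside 20.5% and 22.0% of all tested genes.

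Mitotic kinesins were lower in the arrays labelled KO. Of the 9 tested, 6 fell, 0 rose and 3 were not called, and 6 of 9 is 66.7% against 14.1% of all tested genes. The median difference, KO minus WT, was -0.37 on the log2 scale over the 9 tested and over all 11, beside 0.02 over all tested genes. All 11 differences were below 0. In bulk RNA, fewer dividing cells and less of a transcript per cell cannot be told apart.

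Kif11, the motor that pushes the spindle poles apart, had log2 intensities of 8.46, 8.18 and 8.26 in WT and 7.25, 7.81 and 7.63 in KO, for replicates 1 to 3 in turn here and below. Every KO array lay below every WT array, and KO replicate 1 was the lowest. Kif11 fell 1.67-fold (log2 difference -0.74, SE 0.13, limma adjusted p = 0.0019), with a 95% interval of the difference from -1.04 to -0.45.

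Kif23, a subunit of the centralspindlin complex of cytokinesis, gave 8.09, 7.98 and 8.04 in WT and 7.46, 7.81 and 7.63 in KO. It fell 1.32-fold (log2 difference -0.40, SE 0.10, limma adjusted p = 0.012), and its WT arrays all stood above its KO arrays. Kif20a, which takes the chromosomal passenger complex to the central spindle, gave 8.58, 8.54 and 8.80 in WT and 8.06, 8.41 and 8.34 in KO. It fell 1.29-fold (log2 difference -0.37, SE 0.11, limma adjusted p = 0.028), again with no overlap.

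Kif2c takes microtubules apart at centromeres, and Kif18b acts at the plus ends of astral microtubules. Kif2c gave 7.86, 7.91 and 8.13 in WT and 7.43, 7.74 and 7.59 in KO, a fall of 1.30-fold (log2 difference -0.38, SE 0.10, limma adjusted p = 0.020). Kif18b gave 7.35, 7.16 and 7.30 in WT and 6.88, 7.09 and 6.88 in KO, a fall of 1.25-fold (log2 difference -0.32, SE 0.09, limma adjusted p = 0.025). In both genes KO replicate 2 came nearest to the WT arrays without reaching them.

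Kif4, a kinesin of chromosome arms and the central spindle, gave 7.27, 6.99 and 7.19 in WT and 6.47, 6.91 and 6.92 in KO. It fell 1.31-fold (log2 difference -0.39, SE 0.13, limma adjusted p = 0.043) with no overlap. The pseudogene Kif4-ps has probe sets of its own and was too dim to test, with a difference of 0.05. It may share sequence with Kif4, so the split of signal between them is uncertain.

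The other 3 mitotic kinesins tested did not pass, and in each the groups overlapped. Kif22, another chromosome-binding kinesin, differed by -0.25 (95% interval -0.46 to -0.03, limma adjusted p = 0.086). Kif15, which can stand in for Kif11 on the spindle, differed by -0.29 (-0.54 to -0.04, limma adjusted p = 0.087). Kif18a, which damps the movement of chromosomes at metaphase, differed by -0.08 (-0.32 to 0.15).

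Kif20b and Kif14, both of cytokinesis, were too dim for the test. Kif20b gave 6.15, 5.80 and 5.88 in WT and 5.41, 5.48 and 5.40 in KO, a difference of -0.51 with no overlap. With no filter it was called (limma adjusted p = 0.0037), beside 11.0% of all genes lower and 8.93% higher. Kif14 differed by -0.31 on its brighter probe set (limma adjusted p = 0.095 with no filter) and by 0.10 on a dimmer one. Over all 11 mitotic kinesins the groups did not overlap for 8, each lower in KO, beside 17.4% of all genes lower and 21.0% higher without a filter.

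The number of mitotic kinesins called depended on single arrays. KO replicate 1 was the lowest KO array for 9 of the 11, and KO replicate 2 the highest for 9. Without KO replicate 1, 1 of the 9 tested was called, Kif11, beside 9.80% lower and 7.55% higher of all tested genes, and the median was -0.27. Kif23 then differed by -0.31 (limma adjusted p = 0.058), Kif2c by -0.30 (0.090), Kif18b by -0.29 (0.097), Kif20a by -0.27 (0.12) and Kif4 by -0.24 (0.16).

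The other arrays mattered less for this count. Without KO replicate 3, 3 were called beside 9.91% lower and 8.19% higher of all tested genes, and limma's adjusted p was 0.061 for Kif2c, 0.098 for Kif18b and 0.055 for Kif20a. Without WT replicate 3, 3 were called beside 11.8% and 11.1%, namely Kif11, Kif23 and Kif22, while Kif2c (0.058), Kif18b (0.051), Kif20a (0.082) and Kif4 (0.099) missed the threshold. Without WT replicate 1, 4 were called beside 11.4% and 10.2%, and Kif18b (0.085) and Kif4 (0.12) missed it. Kif4 also missed it with no filter on dim probe sets (limma adjusted p rounded to 0.050).

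**Figure D1:**
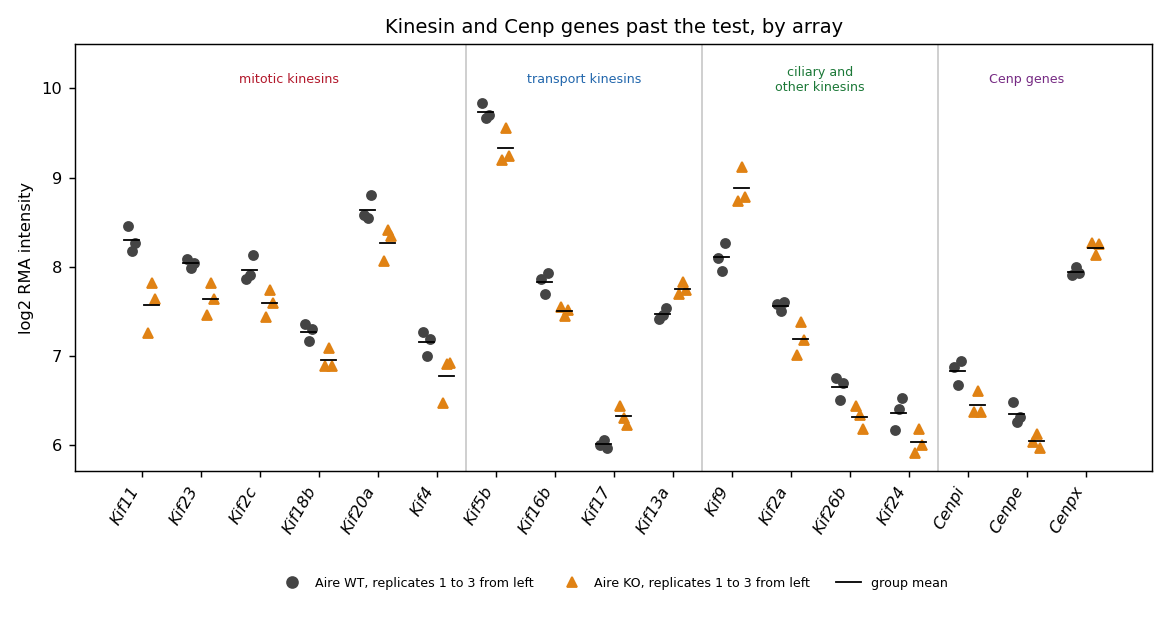
Log2 RMA intensity (vertical axis) of the 17 members past the test, with 1 point per array, circles for the 3 Aire WT arrays, triangles for the 3 Aire KO arrays and bars for group means. Every mitotic kinesin shown has its KO arrays below its WT arrays, Kif17, Kif13a, Kif9 and Cenpx have them above, and in Kif24 the groups overlap.

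Of the 10 thymocyte markers tested, the 2 called were lower in KO (20% against 14.1% of all tested genes). Of all 15 found, 12 differences were below 0 and 3 above. The median difference was -0.35 over the 10 tested and -0.26 over all 15, of which 5 were too dim to test. Ptprc gave 6.92, 6.85 and 7.49 in WT and 6.52, 6.72 and 6.16 in KO, with no overlap. Cd3g, a chain of the T cell receptor complex, gave 8.18, 8.04 and 9.32 in WT and 7.08, 7.68 and 6.59 in KO and fell (log2 difference -1.40, limma adjusted p = 0.0072), highest in WT replicate 3 and lowest in KO replicate 3. The mean of the 15 thymocyte markers was 6.35, 6.26 and 6.74 in WT and 6.18, 6.31 and 6.02 in KO, so the groups overlapped. The mean of the 11 mitotic kinesins was 7.33, 7.16 and 7.25 in WT and 6.71, 7.03 and 6.90 in KO, with no overlap. In both sets WT replicate 2 was the lowest WT array and KO replicate 2 the highest KO array. The highest WT array and the lowest KO array were not the same in the sets. The part of thymocyte RNA in the mitotic kinesin result was not tested.

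Promoters are shown for the mitotic kinesins and Cenp genes of smallest adjusted p, with a pair of transport kinesins beside them, because late cell cycle genes are known for a short promoter element. This element, the cell cycle genes homology region or CHR, has the letters TTTGAA in its usual form. A variant form, which is its own reverse complement, reads TTTAAA instead. Protein complexes that time expression to division bind the CHR, often near a CCAAT box. Sequences are those of RefSeq for GRCm38.p6, from 250 bases before to 50 after a transcript start, and 52 of the 59 members had an entry. Capitals mark the CCAAT box and both forms of the CHR on either strand, and no matches overlap in the windows shown.

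The Kif11 window is chr19:37376132-37376431 on the plus strand, the Kif23 window chr9:61946750-61947049 on the minus strand and the Kif2c window chr4:117178723-117179022 on the minus strand. The start used for Kif2c lies 3852 bases inside the outer end of the annotated gene.
Kif11: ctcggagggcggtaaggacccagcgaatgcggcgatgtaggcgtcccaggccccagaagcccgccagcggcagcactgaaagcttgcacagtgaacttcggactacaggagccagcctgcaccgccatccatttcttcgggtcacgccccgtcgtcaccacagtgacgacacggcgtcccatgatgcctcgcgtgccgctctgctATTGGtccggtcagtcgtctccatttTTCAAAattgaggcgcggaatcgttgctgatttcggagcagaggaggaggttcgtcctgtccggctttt
Kif23: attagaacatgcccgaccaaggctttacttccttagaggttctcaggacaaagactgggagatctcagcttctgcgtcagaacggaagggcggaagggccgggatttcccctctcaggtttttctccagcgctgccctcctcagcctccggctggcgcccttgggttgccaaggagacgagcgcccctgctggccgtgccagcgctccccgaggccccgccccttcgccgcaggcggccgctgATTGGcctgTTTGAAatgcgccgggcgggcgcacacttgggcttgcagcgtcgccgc
Kif2c: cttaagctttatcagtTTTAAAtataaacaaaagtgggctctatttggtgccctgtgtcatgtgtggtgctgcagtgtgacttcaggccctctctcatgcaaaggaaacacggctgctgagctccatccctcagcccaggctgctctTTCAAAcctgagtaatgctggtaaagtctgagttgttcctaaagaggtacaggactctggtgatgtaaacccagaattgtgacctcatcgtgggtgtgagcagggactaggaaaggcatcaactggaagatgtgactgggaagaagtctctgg

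The Cenpi window is chrX:134307834-134308133 on the plus strand. For the transport kinesins, the Kif16b window is chr2:142901415-142901714 on the minus strand and the Kif17 window chr4:138262001-138262300 on the plus strand.
Cenpi: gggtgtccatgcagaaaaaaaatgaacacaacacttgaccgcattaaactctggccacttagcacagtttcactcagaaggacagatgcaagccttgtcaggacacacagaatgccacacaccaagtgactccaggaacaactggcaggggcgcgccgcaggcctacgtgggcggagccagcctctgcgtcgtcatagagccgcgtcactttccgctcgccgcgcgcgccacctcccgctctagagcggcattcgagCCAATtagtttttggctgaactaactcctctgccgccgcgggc
Kif16b: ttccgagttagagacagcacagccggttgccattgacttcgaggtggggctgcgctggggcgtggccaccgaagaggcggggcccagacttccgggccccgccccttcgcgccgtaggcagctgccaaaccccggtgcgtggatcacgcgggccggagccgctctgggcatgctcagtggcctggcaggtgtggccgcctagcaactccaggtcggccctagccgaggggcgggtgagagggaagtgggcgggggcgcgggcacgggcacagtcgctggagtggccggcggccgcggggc
Kif17: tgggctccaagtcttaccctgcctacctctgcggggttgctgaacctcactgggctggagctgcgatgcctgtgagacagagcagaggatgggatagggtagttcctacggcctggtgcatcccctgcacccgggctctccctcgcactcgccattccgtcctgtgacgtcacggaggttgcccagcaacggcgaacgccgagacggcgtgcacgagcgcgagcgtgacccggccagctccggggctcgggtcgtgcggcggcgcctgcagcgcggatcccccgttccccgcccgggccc

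Counted from the transcript start as base 0, the Kif11 window held the CCAAT box at -45 to -41 and the usual CHR at -19 to -14, both as the reverse complement. The Kif23 window held the box at -7 to -3 and the usual CHR at 2 to 7, and the Kif2c window held the usual CHR at -103 to -98, the variant at -234 to -229 and no box. Cenpi held a CCAAT box alone, at 7 to 11, and Kif16b and Kif17 held none of these motifs.

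The called members Kif20a and Kif5b had no promoter entry. Among the 10 mitotic kinesins with a promoter entry, 9 held the usual CHR, all but Kif18a. Kif2c is counted among these 9, with a start 3852 bases inside the outer end of the annotated gene. The usual CHR stood in 0 of 11 transport kinesin promoters and in 2 of 10 of the ciliary and other kinesins (Kif26b and Kif27). It also stood in 5 of 21 of the Cenp genes (Cenpa, Cenpf, Cenpl, Cenpn and Cenpw). The share was 12.1% over 11000 promoters of genes tested here and 18.2% over 27025 promoters of all genes. Within 30 bases of the start it stood in 7 of 10 mitotic kinesin promoters, those of Kif4, Kif11, Kif15, Kif18b, Kif20b, Kif22 and Kif23, against 1.73% of the promoters of tested genes. There it also stood in 4 of 21 Cenp genes (Cenpa, Cenpf, Cenpn and Cenpw), none of them called. The count was 1 of 10 for the ciliary and other kinesins (Kif26b) and 0 of 11 for the transport kinesins.

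The CCAAT box stood in 6 of 10 mitotic kinesins, 3 of 11 transport kinesins, 5 of 10 ciliary and other kinesins and 14 of 21 Cenp genes, against 37.8% for tested genes. The variant CHR stood in 2 of 10 mitotic kinesins, 0 of 11 transport kinesins and 5 of 21 Cenp genes, against 9.05%. A match describes the letters of a window, not binding, and these shares were compared without a test.

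**Figure D2:**
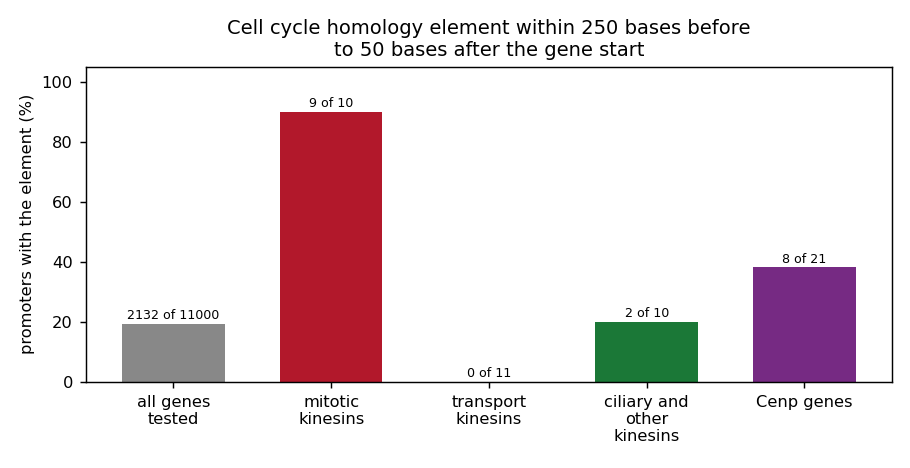
Percent of promoters (vertical axis, from 0) that hold the CHR in either form on either strand, for all tested genes and for the 4 groups of members, with counts above the bars. The element was in 9 of 10 mitotic kinesin promoters and 0 of 11 transport kinesin promoters, beside 19.4% of the promoters of tested genes.

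Transport kinesins moved in both directions or were not called. Of 15 tested, 2 fell, 2 rose and 11 were not called, which is 13.3% in each direction, near the 14.1% and 12.04% of all tested genes. The median difference was -0.07. Their mean log2 level was 7.63, 7.62 and 7.65 in WT and 7.63, 7.65 and 7.52 in KO, so the groups overlapped. The mean of the 11 mitotic minus the mean of the 15 transport kinesins on each array was -0.30, -0.46 and -0.40 in WT and -0.92, -0.62 and -0.62 in KO. That contrast differed by -0.33 between the genotypes, with every KO array below every WT array, and by -0.24 without KO replicate 1.

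Kif5b, the widely expressed heavy chain of conventional kinesin, gave 9.84, 9.67 and 9.70 in WT and 9.20, 9.56 and 9.24 in KO. It fell 1.32-fold (log2 difference -0.40, SE 0.11, limma adjusted p = 0.017). Kif16b, which moves early endosomes, gave 7.86, 7.69 and 7.93 in WT and 7.55, 7.44 and 7.51 in KO, a fall of 1.26-fold (log2 difference -0.33, SE 0.09, limma adjusted p = 0.019). In neither gene did the groups overlap. Kif5a and Kif5c, paralogs of Kif5b best known from neurons, differed by -0.15 (95% interval -0.39 to 0.09) and -0.14 (-0.37 to 0.09) and were not called.

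Kif17, a motor of dendrites and cilia, gave 6.00, 6.05 and 5.96 in WT and 6.43, 6.30 and 6.22 in KO, the WT arrays close to the filter. It rose 1.24-fold (log2 difference 0.31, SE 0.09, limma adjusted p = 0.021). Kif13a, which carries cargo to recycling endosomes, gave 7.41, 7.46 and 7.53 in WT and 7.69, 7.83 and 7.74 in KO, a rise of 1.22-fold (log2 difference 0.29, SE 0.08, limma adjusted p = 0.025). The KO arrays of both genes lay above all WT arrays. Its paralog Kif13b gave 9.01, 9.19 and 9.20 in WT and 9.08, 9.15 and 9.14 in KO, with overlap, and differed by -0.01 (95% interval -0.20 to 0.17), a sign that turned with array weights and without WT replicate 2, WT replicate 3 or KO replicate 1.

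Of the motor subunits of kinesin-2, which works in cilia and elsewhere, Kif3a differed by -0.19 (-0.39 to 0.00), Kif3b by -0.13 (-0.31 to 0.06) and Kif3c by 0.21 (-0.08 to 0.50). Vesicle and organelle motors of the kinesin-3 family gave -0.15 for Kif1a, 0.06 for Kif1b and -0.07 for Kif1c, and Kif21a and Kif21b gave 0.14 and 0.08. None of these 8 was called by limma, and Kif3a and Kif3b were the ones among them whose groups did not overlap.

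The calls of transport kinesins also depended on single arrays, while the 4 differences kept their sign. Without WT replicate 1, 0 were called in either direction, with limma adjusted p of 0.058 for Kif5b, 0.056 for Kif16b, 0.055 for Kif17 and 0.083 for Kif13a, beside 11.4% lower and 10.2% higher of all tested genes. Without KO replicate 3, Kif5b (0.074), Kif16b (0.058) and Kif13a (0.067) were lost. Without KO replicate 1, Kif5b (0.077) and Kif17 (0.098) were lost, without KO replicate 2, Kif16b (0.061) and Kif13a (0.077), and without WT replicate 2, Kif13a (0.062).

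**Figure D3:**
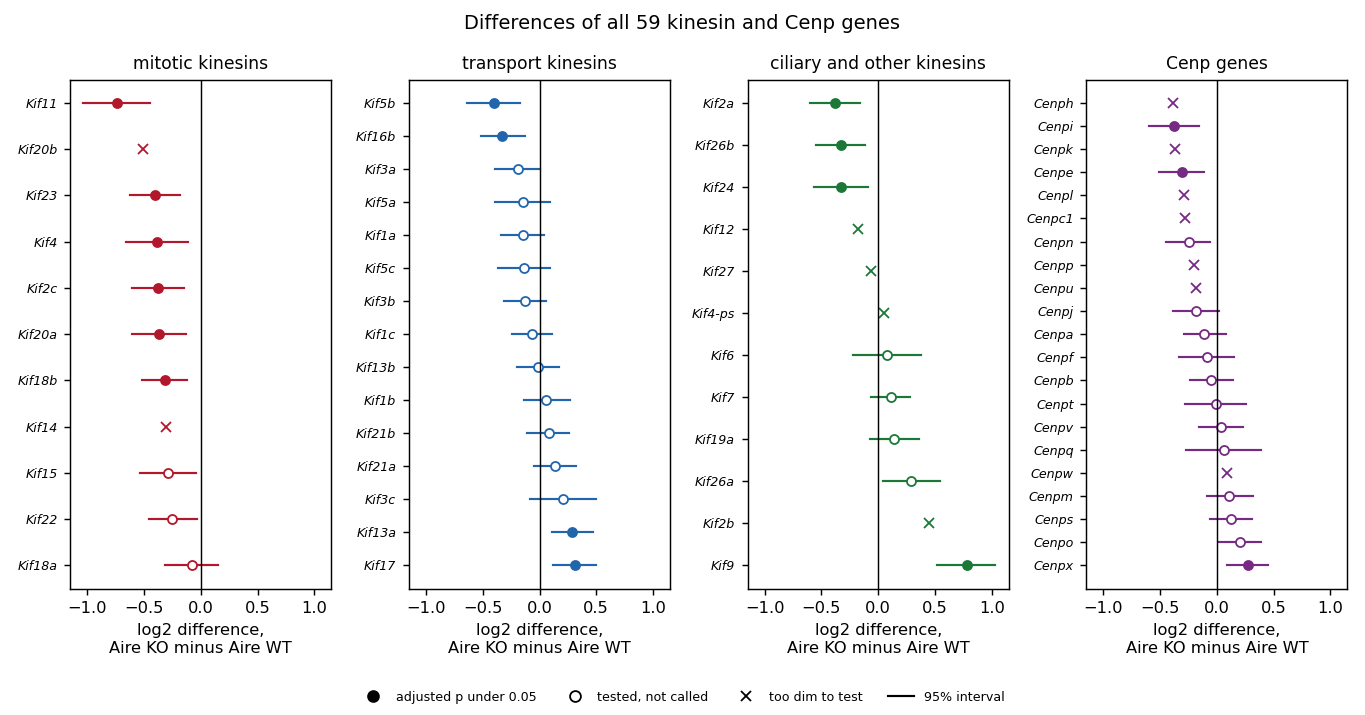
Log2 difference, Aire KO minus Aire WT (horizontal axis), of all 59 members in 4 groups, with 95% intervals for the 46 tested; members past the test, members tested but not called and the 13 members too dim to test are drawn with different markers. All 11 mitotic kinesins lie below 0, whereas the 15 transport kinesins spread from -0.40 to 0.31.

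Among the ciliary and other kinesins, 3 of 8 tested fell, 1 rose and 4 were not called, which is 37.5% lower and 12.5% higher against 14.1% and 12.04% of all tested genes, and the median difference was 0.10. Kif9, a motor of motile cilia and sperm tails, had the largest difference of the 59 members. It gave 8.10, 7.95 and 8.26 in WT and 8.74, 9.12 and 8.78 in KO, with no overlap, and rose 1.71-fold (log2 difference 0.78, SE 0.12, limma adjusted p = 0.00058). Of the other kinesins of cilia, Kif6 differed by 0.08, Kif7 by 0.11 and Kif19a by 0.14, none of them called, and Kif27 was too dim at -0.06.

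Kif24, which holds centrioles back from making cilia, gave 6.16, 6.40 and 6.52 in WT and 5.91, 6.17 and 6.00 in KO. It fell 1.26-fold (log2 difference -0.33, SE 0.11, limma adjusted p = 0.044), and its groups overlapped. The adjusted p was 0.053 with no filter, 0.054 with arrays quantile normalized again, 0.057 with arrays centred on their median, 0.060 with an offset of 32 and 0.057 with trended robust variances. Leaving out WT replicate 2 gave 0.10, WT replicate 3 0.12, KO replicate 1 0.16 and KO replicate 3 0.12.

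Kif2a, which takes microtubules apart at spindle poles and in axons, gave 7.58, 7.50 and 7.60 in WT and 7.01, 7.38 and 7.17 in KO. It fell 1.30-fold (log2 difference -0.38, SE 0.10, limma adjusted p = 0.018) with no overlap, and the call was lost without KO replicate 1 (0.083) or KO replicate 3 (0.061). If Kif2a and its relative Kif2b were counted as mitotic kinesins, 7 tested genes of that group fell, beside 14.1% of all tested genes. The median of that group stayed at -0.37, but its differences no longer all lay below 0, because Kif2b was higher in KO. Kif2b gave 5.09, 5.18 and 5.03 in WT and 5.64, 5.54 and 5.47 in KO, all under the filter, a difference of 0.45. It was called higher when the filter was dropped (limma adjusted p = 0.0034), beside 11.0% of all genes lower and 8.93% higher.

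Kif26b and Kif26a, kinesins with little motor activity that act in signalling during development, did not move together. Kif26b gave 6.75, 6.50 and 6.69 in WT and 6.43, 6.33 and 6.18 in KO and fell 1.26-fold (log2 difference -0.33, SE 0.10, limma adjusted p = 0.028). The call was lost with the mean of its probe sets (0.10) and without WT replicate 1 (0.094), WT replicate 3 (0.064), KO replicate 2 (0.060) or KO replicate 3 (0.12). Kif26a gave 7.62, 7.58 and 7.18 in WT and 7.73, 7.73 and 7.81 in KO with no overlap, a difference of 0.29 that was not called (limma adjusted p = 0.078) except without WT replicate 1 (0.049). Kif12 was too dim at -0.18.

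Cenp genes were mostly not called. Of 14 tested, 2 fell, 1 rose and 11 were not called, which is 14.3% and 7.14% against 14.1% and 12.04% of all tested genes. The median difference was -0.03 over those tested and -0.11 over all 21, with 7 too dim to test. The mean log2 level of the 21 was 6.67, 6.60 and 6.64 in WT and 6.49, 6.56 and 6.55 in KO, with every KO array below every WT array and a difference of -0.10.

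Cenpi stands in the inner network that joins centromeric chromatin to the kinetochore. It gave 6.87, 6.67 and 6.94 in WT and 6.37, 6.60 and 6.37 in KO and fell 1.30-fold (log2 difference -0.38, SE 0.10, limma adjusted p = 0.016). Its partners Cenph and Cenpk lay under the filter on every array. Cenph gave 5.61, 5.60 and 5.85 in WT and 5.15, 5.25 and 5.49 in KO, a difference of -0.39, and Cenpk differed by -0.37. In all 3 genes the KO arrays lay below the WT arrays, and both partners were called when the filter was dropped (limma adjusted p = 0.027 for Cenph and 0.037 for Cenpk). Over all 21 Cenp genes the groups did not overlap for 6 lower and 2 higher in KO, beside 17.4% and 21.0% of all genes. With no filter 4 Cenp genes were called lower and 1 higher, beside 11.0% and 8.93% of all genes.

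Cenpe, itself a kinesin that carries chromosomes to the spindle equator, gave 6.48, 6.25 and 6.31 in WT and 6.03, 6.12 and 5.96 in KO. It fell 1.24-fold (log2 difference -0.31, SE 0.09, limma adjusted p = 0.028) with no overlap. Cenpf, a large protein of the outer kinetochore, differed by -0.09 (95% interval -0.33 to 0.15) and was not called.

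Cenpx, which pairs with Cenps at the kinetochore and in DNA repair, was the 1 Cenp gene that rose. It gave 7.90, 8.00 and 7.93 in WT and 8.26, 8.13 and 8.25 in KO, a rise of 1.21-fold (log2 difference 0.27, SE 0.08, limma adjusted p = 0.031) with no overlap. Cenps differed by 0.12 (-0.06 to 0.31) and was not called. Cenpo, of another part of the inner network, differed by 0.20 (limma adjusted p = 0.10) with groups that did not overlap.

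Cenpb, Cenpa and Cenpn were not called. Cenpb, which binds centromeric repeats, gave 8.67, 8.59 and 8.56 in WT and 8.64, 8.42 and 8.62 in KO, with overlap, and differed by -0.05, or by 0.02 without KO replicate 2. Cenpa, the histone variant that defines the centromere, differed by -0.11 (-0.29 to 0.08). Cenpn, which recognises nucleosomes with Cenpa, differed by -0.25 (limma adjusted p = 0.058) with no overlap, and its partner Cenpl was too dim at -0.29.

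Of the remaining Cenp genes tested, Cenpm differed by 0.11, Cenpq by 0.06, Cenpt by -0.01, Cenpj, which codes for a centriole protein, by -0.18 and Cenpv by 0.04, and none was called. Cenpc1 at -0.28, Cenpp at -0.20, Cenpu at -0.18 and Cenpw at 0.09 were too dim to test. The call of Cenpi was lost without KO replicate 1 (0.068) or KO replicate 3 (0.071). Those of Cenpe and Cenpx were lost without WT replicate 1 (0.11 and 0.095), KO replicate 1 (0.081 and 0.11) or KO replicate 3 (0.11 and 0.10).

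Genes that work with the mitotic kinesins were lower in KO where they passed the test. Of 24 spindle and cytokinesis partners, 9 fell (37.5%, against 14.1% of all tested genes), 0 rose and 15 were not called, with a median difference of -0.30. Anln, a scaffold of the cleavage furrow, gave 8.35, 8.27 and 8.30 in WT and 7.51, 7.91 and 7.80 in KO (log2 difference -0.57, limma adjusted p = 0.0022). Cdc25c, a phosphatase of entry into mitosis, Ect2, a signal to the furrow, and Top2a, which untangles chromosomes, fell with log2 differences of -0.45, -0.51 and -0.63. With each array left out in turn, 6 to 13 of the 24 fell and 0 rose, the fewest without KO replicate 1, beside 9.80% of all tested genes.

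Of 25 tested kinetochore and checkpoint partners, 6 fell, 0 rose and 19 were not called, which is 24% lower against 14.1% of all tested genes and 0% higher against 12.04%, with a median difference of -0.08. The genes of the checkpoint kinases Ttk and Bub1 fell, with log2 differences of -0.49 and -0.55. So did Sgo2a, a guard of cohesion, at -0.43 and Kntc1, of a complex that brings dynein to kinetochores, at -0.33. Without KO replicate 1, 1 of the 25 fell beside 9.80% of all tested genes, and without WT replicate 1, 4 did beside 11.4%.

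Partners of the transport kinesins were mostly not called. Of 26 adaptors and dynein motor subunits, 1 fell, 2 rose and 23 were not called, which is 3.85% and 7.69% against 14.1% and 12.04% of all tested genes, with a median difference of 0.03. Trak1, which links kinesin to mitochondria, fell (log2 difference -0.33), and the dynein subunit gene Dync1i1 and the scaffold gene Mapk8ip2 rose by 0.34 and 0.30. Calls among the 26 ranged from 0 to 2 lower and 0 to 4 higher with arrays left out in turn, with 0 in either direction without KO replicate 3 and 4 higher without WT replicate 3. Of 20 tested DNA replication genes, 3 fell, 1 rose and 16 were not called, which is 15% and 5% against 14.1% and 12.04% of all tested genes, both near or below that background, with a median difference of -0.14. The helicase subunit genes Mcm4 and Mcm6, and Rrm2, which supplies nucleotides, fell with log2 differences of -0.32, -0.33 and -0.33, whereas Fen1, which trims DNA flaps, rose by 0.28. Without KO replicate 1 or WT replicate 1, limma called 0 of these 20 genes in either direction, and without WT replicate 3 it called 1 lower.

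**Figure D4:**
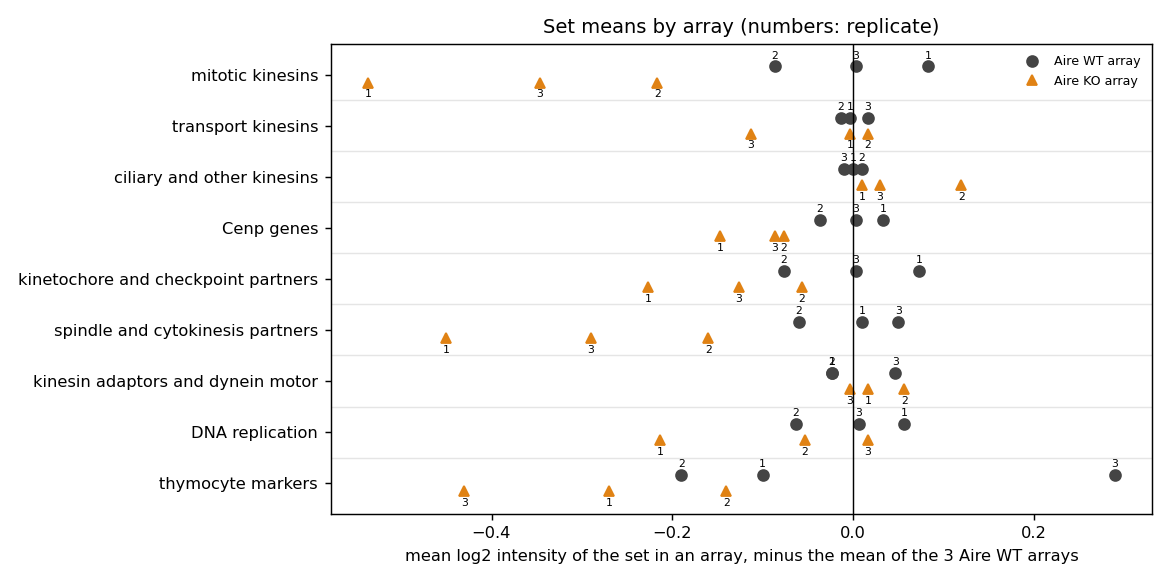
Mean log2 intensity of each set on each array minus the mean of the 3 Aire WT arrays (horizontal axis), with circles for WT, triangles for KO and the replicate number at each point. KO replicate 1 lies lowest for the mitotic kinesins, Cenp genes, kinetochore and checkpoint partners, spindle and cytokinesis partners and DNA replication. KO replicate 3 lies lowest for the thymocyte markers. The groups overlap for the transport kinesins and their adaptors, and also for the kinetochore and checkpoint partners, DNA replication and the thymocyte markers.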

How the data were processed

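Gene expression was measured in 6 samples of 2 groups. The authors deposited intensities for 35512 probe sets, computed with RMA according to the submitters' processing notes, a method that subtracts background, gives all arrays 1 distribution and summarises probes. Its version is not given in the sources used here, nor is a build. The deposited intensities are linear and carry no detection call, and background compresses folds of dim genes. All 6 columns matched a sample.

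Log2 values were taken without a pseudocount (0). Of the probe sets, 21789 have 1 symbol in the platform annotation, 1621 several and 12102 none. Each gene took its 1-symbol probe set of highest mean. Genotype was fitted with limma 3.58.1 in R 4.3.3 (lmFit, eBayes, two-sided, Benjamini-Hochberg over all tested genes), tested on simulated data. SE and 95% intervals are from this fit; plots used matplotlib 3.10.9. No batch is labelled. All 59 members matched the RefSeq table by Entrez identifier.

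The members, roles, lists and tests were chosen with earlier results of these data known, so no p is adjusted over a list alone, and lists are described by counts and medians. Values per array are given for called members and, in each of the 4 groups, for the 2 of highest mean and the 2 of largest difference; up to 4 called genes of each partner list are named in order of adjusted p. Alternatives changed the filter, normalization, offset, probe set rule, variance model or array weights, added a replicate block or left out each array.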

Additional observations from a re-analysis of the deposited data

How the results depend on the processing

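Under 16 alternatives, Kif11 and Kif9 kept their calls and the 17 called members kept their sign wherever they were tested. With the 60th percentile filter, 4 mitotic kinesins were lower, 1 transport kinesin was higher and 1 ciliary or other kinesin lower. In that setting 1 Cenp gene was lower, and the Cenp median was 0.02. Of the 17 called members 10 were tested there, and 0 lost their call. Cenpi and Cenpe were not tested there, so the lower Cenp gene was not among the 17. Fewer genes are tested there, and 1461 of all were lower and 1337 higher. With no filter 4 Cenp genes were lower with a median of -0.11, and 2 ciliary and other kinesins were higher, beside 11.0% lower and 8.93% higher of all genes. With array weights 4 Cenp genes were lower and 2 higher, and Kif13b stood at 0.01. Calls over all tested genes also rose with array weights, from 1963 to 2319 lower and from 1676 to 2013 higher. Leaving out 1 array at a time, counts ranged from 1 to 7 for mitotic kinesins lower, 0 to 2 for transport kinesins lower and 0 to 2 higher, 0 to 2 for ciliary and other kinesins lower and 1 to 2 higher, and 0 to 3 for Cenp genes lower and 0 to 1 higher. Over all tested genes they ranged from 1364 to 1877 lower and 1052 to 1547 higher. Medians ranged from -0.44 to -0.27 for mitotic kinesins, -0.10 to -0.03 for transport kinesins and -0.08 to 0.00 for Cenp genes, and the mitotic minus transport contrast from -0.38 to -0.24. Kif13b ranged from -0.07 to 0.02 and Cenpb from -0.09 to 0.02. Of the 17 called members, leaving out KO replicate 1 cost 12 their call, KO replicate 3 cost 12, WT replicate 1 cost 9 and WT replicate 3 cost 6. Leaving out KO replicate 2 cost 3 and WT replicate 2 cost 2. Each of these fits had 1 array fewer, and the cause of the losses was not tested. Deviations of same-numbered arrays from their group means had correlations of -0.0181, -0.209 and -0.0559, and those of other pairs ranged from -0.0955 to 0.149. With 3 arrays a group these values cannot show whether same-numbered arrays share a preparation, and the labels do not say. With the replicate block, mitotic kinesins lower stayed at 6, transport kinesins higher became 1 as Kif13a missed the threshold (limma adjusted p = 0.051), and Cenp genes higher became 0 as Cenpx did (0.069). Over all tested genes, 1742 were lower and 1368 higher with the block. The 3 arrays a group and the lack of a detection call limit what can be said of the 13 dim members.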
